A study of Mus musculus with 1 sample.

Results

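Neurotrophic factors that support dopamine neurons were examined as 9 genes in the transcriptome of mouse ventral midbrain (VM) glia. The genes were Gdnf, Nrtn, Bdnf, Ntf3, Cntf, Manf, Cdnf, Ptn and Mdk. They were selected by gene symbol alone, and each of the 9 symbols had 1 row among the 23282 rows of the table. The material was primary mixed glia from VM of ICR(CD-1) outbred mouse pups at postnatal day 5, passaged from flasks onto poly-D-lysine, and 1 control library was sequenced. The study addressed inhibition of the kinase SGK1 in such glia, and the paper describes the control of the RNA-seq comparison as treated with the vehicle DMSO. Inhibitor-treated glia are not analysed here, so no comparison between treatments was made and no value below has a replicate error. The treatment text of the labels also mentions toxins, without saying whether the control received any, and how many pups were pooled is not given in the sources used here.

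Neurotrophic factors are secreted proteins that keep neurons alive and guide the growth of their processes. Midbrain dopamine neurons, which degenerate in Parkinson disease, respond to several unrelated families of them, and glia are a known source. The 9 genes fall into 5 such systems. GDNF and neurturin (Nrtn) belong to the GDNF family, which signals through GFRα co-receptors and the kinase RET or the adhesion molecule NCAM. BDNF and neurotrophin-3 (Ntf3) are neurotrophins, which act through TRK kinases and the p75 receptor. CNTF is a cytokine of the interleukin-6 type. MANF and its paralog CDNF are proteins of the endoplasmic reticulum (ER) that can be secreted. Pleiotrophin (Ptn) and midkine (Mdk) are paralogous growth factors that bind heparin.

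The deposited values were whole numbers on the read-count scale, which the authors describe as normalised read counts, and they summed to 27569507. The number of reads behind them is unknown, so no counting interval is given. Since long transcripts yield more reads than short ones, levels were compared between genes only after each value was divided by the length of the gene's annotated exons in kilobases and scaled to a total of 1000000 over all rows with a length. This quantity is called the level below. Detected genes are those whose value reached 10.

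Before the levels, the sequence around 1 member has to be shown, because it decides what its value can mean. Ciliary neurotrophic factor (Cntf, chromosome 19, 12763660 to 12765632, minus strand, GRCm38) lies downstream of the zinc finger gene Zfp91 on the same strand, and 1 annotated Zfp91 transcript, classed as subject to nonsense-mediated decay, runs into both exons of Cntf. Of 1073 annotated exon bases of Cntf, 847 (78.9%) are exon bases of that transcript too, including all 594 coding bases. The bases that belong to Cntf alone are the first 226 of its 5′ UTR. The sequences below show where the transcripts join, read 5′ to 3′ from the GENCODE transcripts (GRCm38, minus strand), with the shared bases in capitals and the bases particular to each transcript in lower case. The Cntf stretch lies at chr19:12765377-12765424, and the shared part begins 12 bases before its start codon.
Cntf: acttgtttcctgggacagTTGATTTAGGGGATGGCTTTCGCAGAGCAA
Zfp91, readthrough transcript: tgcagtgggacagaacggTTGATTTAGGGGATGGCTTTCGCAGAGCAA

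A read that lies within the capitals and the 847 bases they open cannot be assigned to either transcript by its sequence. The deposited table held 3 rows for this locus. Cntf had a value of 314, Zfp91 had 1462, and the readthrough gene Zfp91Cntf, which RefSeq lists as the noncoding Gm44505 at 12763528 to 12796123, had 3101. In RefSeq, Cntf spans 12763528 to 12765632 and Zfp91 12766939 to 12796123, so their spans share no base there. Of the 3 rows, only Zfp91Cntf spans Cntf in that annotation. The Cntf length used here comes from GENCODE, where the gene ends at 12763660. The Zfp91Cntf value was 9.88 times that of Cntf. Cntf held 6.44% of the sum of the 3 rows, 4877, which includes the Zfp91 row. How the counting divided reads among these rows is not stated, so the Cntf value carries this uncertainty wherever it appears.

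**Figure D1:**
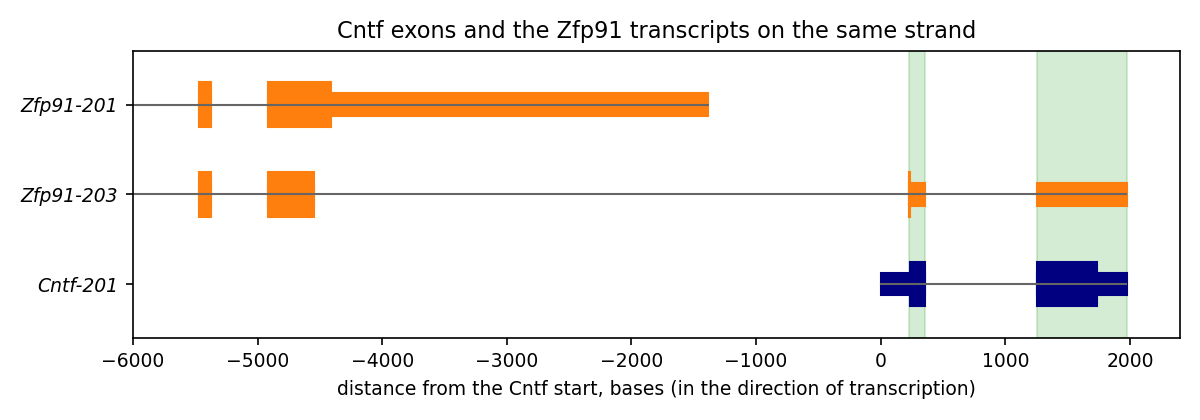
Exons of Cntf (bottom) and of the end of 2 Zfp91 transcripts, plotted by distance from the Cntf start in bases along the direction of transcription. Tall boxes are coding bases, low boxes are untranslated exon bases, lines are introns, and green shading marks the 847 exon bases that Cntf shares with the lower Zfp91 transcript, while the upper one ends before Cntf. The coding boxes of Cntf lie wholly inside the shading.

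Of the 9 genes, 8 were detected, against 67.2% of all rows of the library. Ptn had a value of 4759, Manf 4307 and Mdk 645. Cntf had a value of 314, Bdnf 300, Nrtn 94, Gdnf 93 and Cdnf 40. Ntf3, at 7, fell under the minimum of 10, though it was not listed at 0. Ptn and Manf together held 85.9% of the summed value of the 9 genes, 10559, and 73.1% of their summed level, 336.

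On the level scale the order was Ptn (131), Manf (115), Mdk (45.9), Cntf (27.6), Nrtn (8.66), Bdnf (4.55), Gdnf (2.39), Cdnf (1.21) and Ntf3 (0.385), a span of 339-fold. The median level of all detected genes was 9.65, with quartiles of 2.71 and 30.1. The level of Ptn was above that of 93.3% of detected genes, Manf above 92.3%, Mdk above 82.1% and Cntf above 73.4%. These 4 genes were above the median of detected genes. Nrtn was above 47.6% of them, Bdnf above 33.8%, Gdnf above 23.2%, Cdnf above 13.8% and Ntf3 above 3.92%. The median level of the 9 genes, that of Nrtn at 8.66, was therefore close to the median of genes detected at the minimum of 10. The genes stood on both sides of that median.

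With 1 library the only spread that could be given was that over the definition of gene length, which also changes the scaling total. Levels were recomputed with the longest transcript and with the mean length of coding transcripts. Of the 8 pairs of neighbours in the order, 6 had ranges that did not overlap. The ranges of Ptn (117 to 135) and Manf (115 to 239) overlapped, and Manf was the higher with either alternative length. The ranges of Nrtn (4.70 to 8.66) and Bdnf (3.90 to 5.10) overlapped as well. Nrtn has 1 annotated transcript and the same length throughout, so its range reflects only the scaling total. Within each definition Nrtn was above Bdnf, at 1.21 to 1.90 times. A further definition divided each whole value by the exon bases that no other gene overlaps. It placed Cntf at 117, above Mdk (40.99) and Manf (113) and at about the level of Ptn (117). For Cntf this assigns the whole value to 226 bases whose reads were not counted apart, so 117 is not a measured level. The place of Cntf in the order thus depends on how its shared bases are treated. These ranges are no substitute for an error between cultures.

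**Figure D2:**
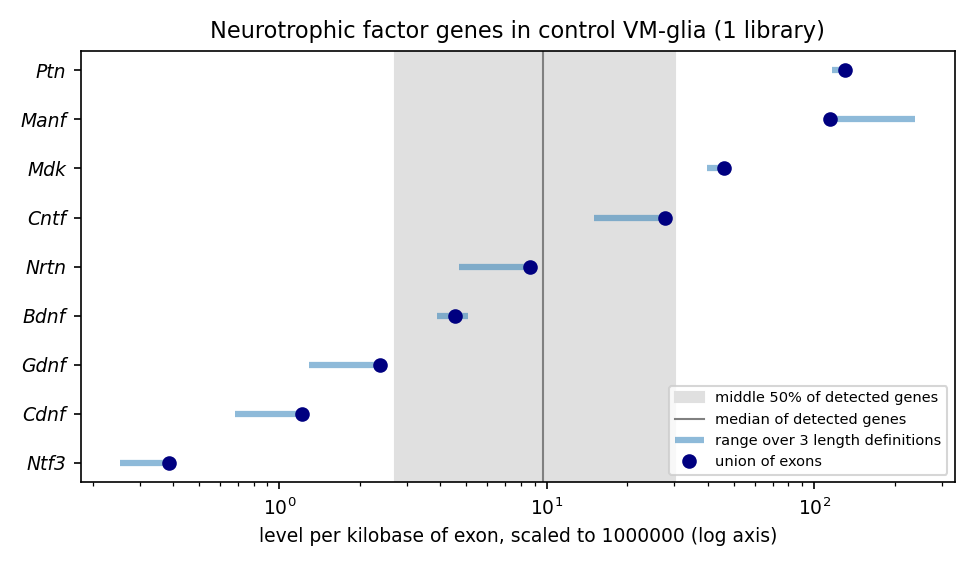
Level of each of the 9 genes in the control library, as value per kilobase of exon scaled to 1000000 on a log axis. Points use the union of exons, and bars span the 3 length definitions. Grey shading is the middle 50% of detected genes and the grey line their median, 9.65. Ptn, Manf and Mdk lie to the right of the shading, while Gdnf, Cdnf and Ntf3 lie to its left.

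Within the GDNF family, deposited values and levels gave different pictures. Gdnf, a survival factor for midbrain dopamine neurons, and Nrtn, its close relative, had nearly the same value, 93 and 94. Gdnf has 3674 annotated exon bases and Nrtn 1023, so the level of Nrtn was 3.63 times that of Gdnf. Gdnf lies on chromosome 15 (7810846 to 7837575, plus strand) and Nrtn on chromosome 17 (56751325 to 56757530, minus strand), and the exons of neither overlap another annotated gene. The remaining ligands of the family were lower still, with artemin (Artn) at a value of 42 and a level of 1.65, and persephin (Pspn) at a value of 6, under the minimum, and a level of 1.19.

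Among the 6 GDNF family receptor genes, 5 were detected. The adhesion molecule Ncam1 was highest, at a value of 6815 and a level of 74.1. Gfra2, the preferred co-receptor of neurturin, had a value of 889 and a level of 23.7. Gfra1, the preferred co-receptor of GDNF, had a value of 517 and a level of 8.90. The signalling kinase Ret had a value of 45 and a level of 0.627. The level of Gfra2 was 37.8 times that of Ret, that of Gfra1 14.2 times and that of Ncam1 118 times. Over the length definitions these ratios ranged from 31.04 to 47 for Gfra2, from 13.5 to 27.96 for Gfra1 and from 118 to 216 for Ncam1. Gfra4 had a value of 33, and the artemin co-receptor Gfra3 was listed at 0.

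Of the neurotrophin members, Bdnf (chromosome 2, 109674700 to 109727007, plus strand) had a value of 300 and a level of 4.55, whereas Ntf3 (chromosome 6, 126101412 to 126166910, minus strand) had a value of 7 and a level of 0.385. The Bdnf level was 11.8 times that of Ntf3, and 11.8 to 15.3 times over the length definitions. Bdnf is annotated with 11 transcripts that use alternative first exons, and 14.4% of its 6217 exon bases lie opposite the antisense gene Gm45346, which had no row. Values per gene do not tell its first exons apart, and whether the counting used strand is not stated. Ntf5, which encodes neurotrophin-5, had a value of 10, exactly at the minimum, and a level of 0.355.

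Receptors for neurotrophins were also unequal. Ntrk2, the receptor of BDNF and neurotrophin-5, had a value of 8210 and a level of 40.1, which was 98.0 times the level of Ntrk3, the neurotrophin-3 receptor, at a value of 131 (70.7 to 141 times over the length definitions). Astrocytes are known to make a truncated form of the Ntrk2 receptor without the kinase domain, and counts per gene do not separate it from the full-length form. The p75 receptor Ngfr had a value of 175 and a level of 4.79, and the proneurotrophin receptors Sort1 and Sorcs2 had levels of 36.4 and 10.0. Of 6 genes for proteases that mature proneurotrophins or activate their processing, 5 were detected. Plat, tissue plasminogen activator, had a level of 51.6 and Furin 45.2. Pcsk7 had a level of 11.4, Pcsk5 10.1 and Pcsk6 5.23. Plg, which encodes plasminogen, was listed at 0.

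**Figure D3:**
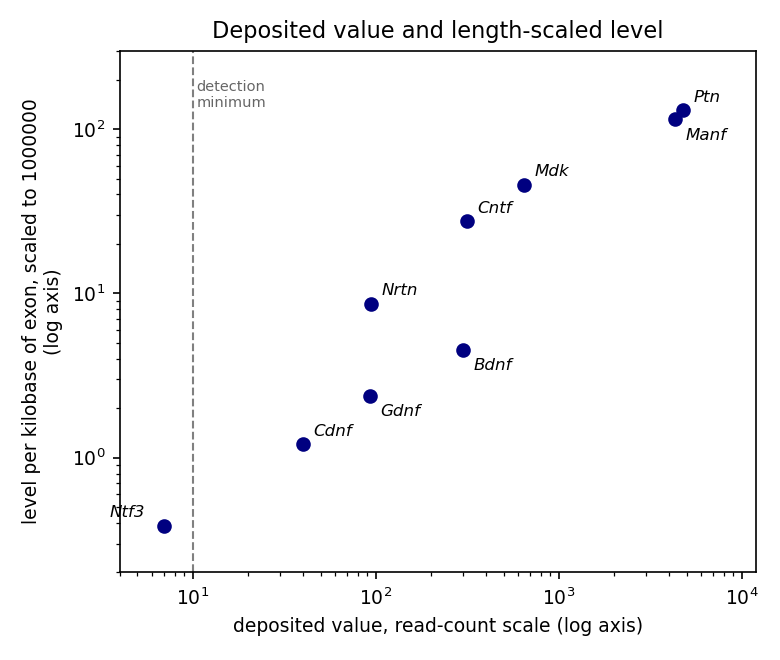
Deposited value on the read-count scale against level per kilobase of exon for the 9 genes, both on log axes. The dashed line is the detection minimum of 10. Nrtn and Gdnf share almost the same value (94 and 93) at different levels (8.66 and 2.39), as do Cntf and Bdnf (314 and 300, with levels of 27.6 and 4.55).

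Cntf, a survival factor known from astrocytes and Schwann cells, had a value of 314 and a level of 27.6. Its level was 6.06 times that of Bdnf with the union of exons and 3.84 times with the mean of coding transcripts. Division by only the exon bases that no other gene overlaps gave 117 for Cntf and 4.74 for Bdnf. This divides the whole Cntf value by 226 bases. Reads on those bases were not counted apart, so 117 is not a level measured on them. All 4 related ligand genes reported here were detected. Clcf1, another ligand of the CNTF receptor, had a value of 817 and a level of 20.2. Lif had a level of 15.4, Osm 4.27 and Ctf1 3.41.

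All 4 receptor genes of this group were detected at moderate or low levels. The shared signalling subunit Il6st (gp130) had a value of 1758 and a level of 14.9, which was 3.61 times the level of the CNTF-specific subunit Cntfr, and 3.31 to 7.36 times over the length definitions. Cntfr had a value of 122 and a level of 4.13, Osmr a level of 5.91 and Lifr, the other signalling subunit, 2.58. The specific subunit was thus above 32.2% of detected genes, and Cntf itself above 73.4%, with the reservation on shared reads.

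The paralogs Manf and Cdnf differed most of the related pairs among the 9 genes. Manf (chromosome 9, 106838312 to 106891979, minus strand) had a value of 4307 and a level of 115, and Cdnf (chromosome 2, 3513030 to 3526376, plus strand) a value of 40 and a level of 1.21. The level of Manf was 95.1 times that of Cdnf, and the ratio reached 351 with the mean length of coding transcripts. Manf has 7 annotated transcripts that cover 3524 exon bases, and its coding transcripts average 924 bases. Of the Manf exon bases, 9.25% overlap other genes, chiefly the antisense gene 4930524O07Rik (166 bases) and Dcaf1 on the opposite strand (146 bases), which the table lists as Vprbp at 2482.

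MANF is retained in the ER and is induced with the unfolded protein response. The 5 genes fixed as its partners were each detected and each lay above the median level of detected genes. Hspa5, the ER chaperone BiP that binds MANF, had a value of 21621 and a level of 482, above 98.1% of detected genes and 1.48 to 4.18 times the level of Manf over the length definitions. Nptn, which encodes neuroplastin, a receptor described for MANF, had a level of 86.4. The KDEL receptors, which return ER proteins, had levels of 79.3 (Kdelr2), 72.6 (Kdelr1) and 19.9 (Kdelr3).

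Ptn (chromosome 6, 36714929 to 36810220, minus strand) and Mdk (chromosome 2, 91929805 to 91932297, minus strand) were the first and the third of the 9 genes by level with the union of exons. The value of Ptn was 7.38 times that of Mdk, but Ptn has 3433 exon bases and Mdk 1324, so the level ratio was 2.85, with a range of 2.85 to 3.04. No exon base of either overlaps another annotated gene. The pseudogene Mdk-ps1 matched Mdk at 89.5% identity over 333 bases, and it had no row.

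Of 10 receptor genes listed for pleiotrophin and midkine, 9 were detected, and 6 were above the median level of detected genes. Those of broad function led, with the endocytic receptor Lrp1 at a level of 286 and nucleolin (Ncl) at 223. The heparan sulfate carriers followed, with syndecans Sdc4 at 211, Sdc3 at 128, Sdc2 at 64.2 and Sdc1 at 19.9. The receptor phosphatase Ptprz1, a main pleiotrophin receptor of glia and their precursors, had a value of 1257 and a level of 8.31, and Cspg5 a level of 5.15. The receptor kinases of the list were lowest, with Ltk at a value of 12 and Alk at 2, under the minimum. Ltk was counted as listed, and whether it binds either factor was not tested.

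**Figure D4:**
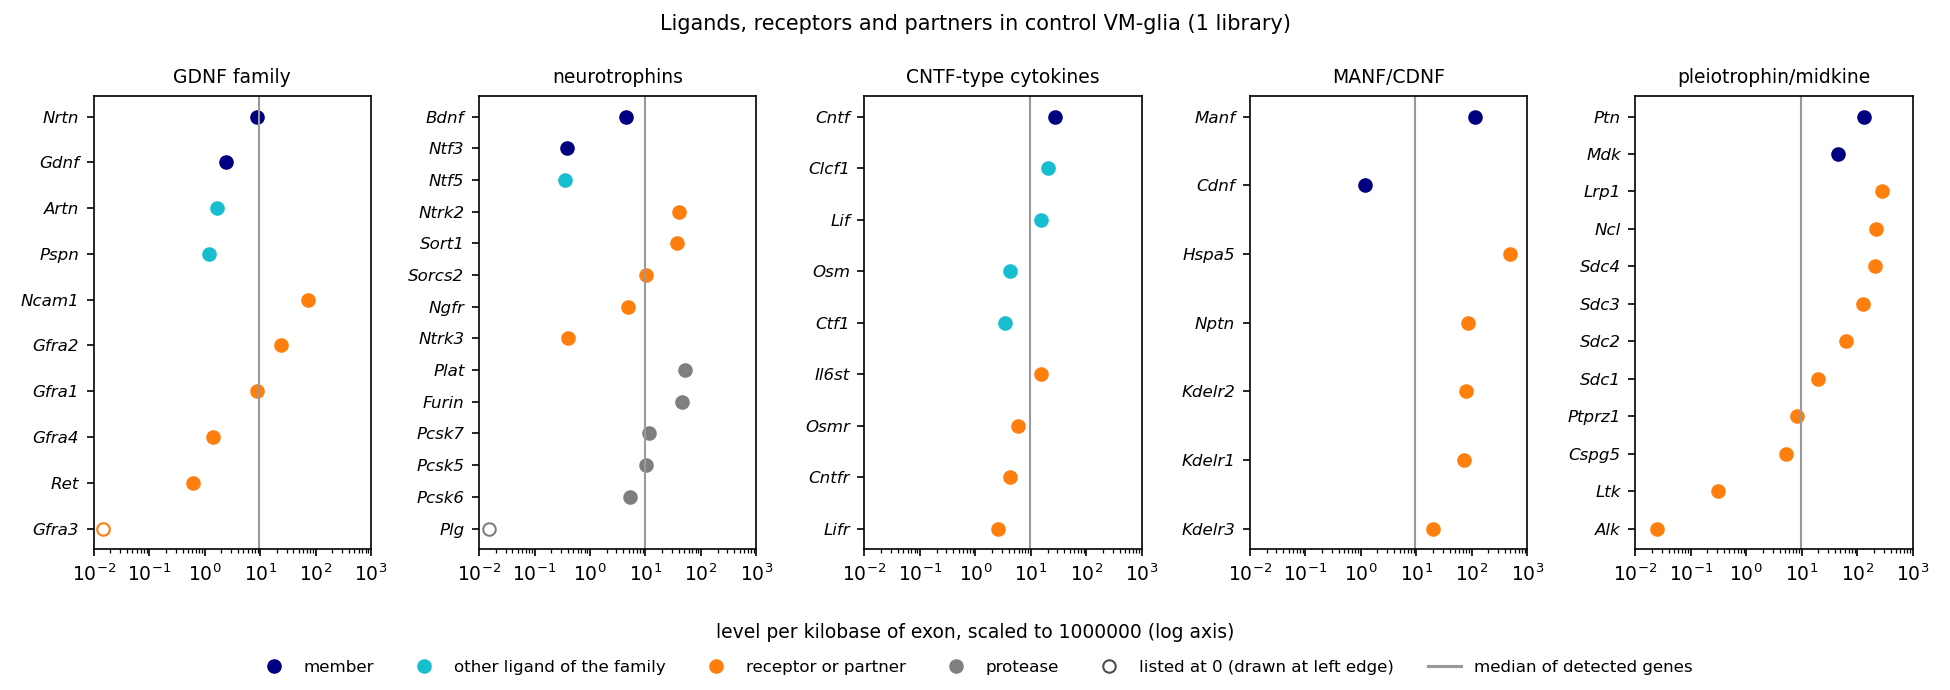
Levels of the 9 genes, of other ligands of their families, and of receptors, partners and proteases, in 1 panel per system, as value per kilobase of exon scaled to 1000000 on a log axis. The grey line is the median of detected genes, 9.65, and open symbols at the left edge are genes listed at 0. Ptn, Manf and Mdk lie right of the line with most of their partners, whereas Ret, Ntrk3, Ltk and Alk lie far to the left of it.

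The kinase receptors differed widely in this library. Ntrk2 was above 79.9% of detected genes by level, while Ret was above 7.15%, Ntrk3 above 4.29% and Ltk above 2.72%. Of 5 dopamine neuron markers, Slc18a2 alone was detected, at 16, and Th was at 3, Ddc at 8, Slc6a3 at 7 and Pitx3 at 0. The part of cell types in the receptor levels was not tested.

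The labelled glial identity was checked on marker lists. All 6 astrocyte markers, all 6 microglia markers, all 6 oligodendrocyte lineage markers and all 6 mesenchymal markers were detected, with summed levels of 740, 4402, 442 and 1532. Of 6 neuron markers 4 were detected, with a summed level of 65.7, of which Stmn2 made 63.9, and Slc17a6 was at 0. Of 5 endothelial markers 3 were detected, with a summed level of 18.6 and Tek at 0. In a bulk sample, fewer cells of a type and less RNA per cell cannot be told apart, and which of these cells made the factors was not tested.

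To see how the 9 genes compare with other secreted factors, 22 growth factor genes were placed beside them. Of the 22, 21 were detected, and their median level was 19.2, against 8.66 for the 9 genes. In the joint order of 31 genes with the union of exons, Ptn took place 4 and Manf place 5. They followed Psap (2633), Grn (1524) and Vegfb (152), where Psap and Grn encode lysosomal proteins, prosaposin and progranulin, that are also secreted with trophic activity. With the mean length of coding transcripts Vegfb was at 109, under Ptn (117) and Manf (239), so its place relative to them depends on the length used. Igf1, next at 101, was 0.774 times the level of Ptn with the union of exons but 2.37 times under another length definition, so Igf1 and Ptn are not ordered. The lowest of the 22 was Fgf20, a factor for dopamine neurons, at a value of 1.

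The 9 genes share a property that their selection did not use. Each has a short coding sequence, from 420 bases in Mdk to 867 in Bdnf, with a median of 585 bases. The median of 14502 detected protein-coding genes was 1398 bases, and the median of the 9 genes was longer than 11.8% of them. The 22 other growth factors had a median of 1040 bases. Cdnf has a further feature of position, since its annotated start lies 216 bases from that of Hspa14, which runs in the opposite direction and had a value of 1822 against 40 for Cdnf.

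The promoters of the 9 genes were described by their content of CG dinucleotides, as the ratio of observed to expected CG in the 250 bases before each RefSeq start. Over 17216 genes with a promoter entry and a row, a ratio of 0.6 or more in any entry was found for 65.9% of detected genes and 11.2% of the others. Entries were found for 7 of the 9 genes, and Manf and Mdk had none. Of these 7 genes, 5 had at least 1 entry at 0.6 or more, and in Bdnf this was 1 of 7 entries. Gdnf had 1 entry at 1.023 and the other at 0.434. Ntf3, which was not detected, had 1 at 0.838 and the other at 0.4745. The ratio was 0.298 in Ptn, the highest gene with the union of exons, and 0.891 in Cdnf, which was at the low end. Manf, above Ptn with the longest transcript and with the mean of coding transcripts, could not be compared for lack of an entry. Cntf had the lowest content of a gene with 1 entry, at 0.137, and Nrtn had 0.725. The promoters of Ptn and Cdnf are shown because Ptn, which led the order with the union of exons, had few CG and Cdnf, near its bottom, had many. Each is the stretch from 250 to 51 bases before the start, 5′ to 3′ on the strand of the gene (GRCm38.p6, RefSeq), with each CG in capitals. The Ptn stretch (chr6:36810230-36810429, minus strand) holds 3 and the Cdnf stretch (chr2:3512815-3513014, plus strand) holds 16, and the latter lies between the starts of Cdnf and Hspa14.
Ptn: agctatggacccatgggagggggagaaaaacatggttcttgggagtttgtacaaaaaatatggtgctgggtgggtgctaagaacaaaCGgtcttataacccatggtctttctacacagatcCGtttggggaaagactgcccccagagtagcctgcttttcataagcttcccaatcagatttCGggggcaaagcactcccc
Cdnf: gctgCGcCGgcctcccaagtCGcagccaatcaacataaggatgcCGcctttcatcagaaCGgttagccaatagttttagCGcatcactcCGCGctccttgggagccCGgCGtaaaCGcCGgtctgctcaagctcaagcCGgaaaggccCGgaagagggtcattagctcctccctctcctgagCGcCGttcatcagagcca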

How the data were processed

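RNA of primary VM-glia was sequenced in 1 control library. According to the study's methods, reads were trimmed at quality 20, mapped to GRCm38/mm10 with STAR and counted on RefSeq exons with HTSeq-count, whereas the submitters' processing notes list TopHat and edgeR. Strand setting, multi-mapped reads and tool versions are not given in the sources used here. The deposited values, whole numbers that the authors call normalised read counts, were taken as a score of read-count size with unknown normalisation. Exon lengths and overlaps came from GENCODE M21 (GRCm38), not the annotation counted on, and 22922 rows (98.5%) had a length. The level was value per kilobase of exon scaled to 1000000, and its code was tested on simulated data. Transcripts were compared by BLAST 2.17.0, with 90% identity over 100 bases as the minimum for the longest alignment of each pair of genes. Promoter sequences and the readthrough gene came from RefSeq (GRCm38.p6).

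The members and lists were chosen with earlier results of these data known. Named genes were the 9 members, the genes of the pathway lists (some genes are not reported here and were left out of the lists), and among other growth factors the 3 highest, the lowest, those at 0, and Igf1, added after its value was seen. Zfp91Cntf, Hspa14, Mdk-ps1 and the near copies of Cdnf were also added then. No test was possible with 1 library. Alternatives were minima of 1, 3 and 100, other gene lengths and other scalings. Scripts ran in Python 3.11.15 with pandas 2.3.3, numpy 2.4.6 and, for plots, matplotlib 3.10.9.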

Additional observations from a re-analysis of the deposited data

How the results depend on the processing

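The number of the 9 genes detected was 9 at minima of 1 and 3, and 5 at a minimum of 100. Of all rows, 67.2% reached the minimum of 10 and 21.8% were at 0. The shares of all rows at minima of 3 and 100 are not given here, so those counts have no background beside them. At 100, detected genes numbered 3 of 6 for GDNF family receptors and 0 of 2 for the other GDNF family ligands, and Ntf5 was not among those detected (0 of 1). The other GDNF family ligands numbered 2 at minima of 1 and 3. The median level of the 9 genes was 4.70 with the mean length of coding transcripts. Of 36 pairs among the 9 genes, 35 kept their order with the longest transcript, 35 with the mean of coding transcripts and 35 without division by length, and 33 with exon bases that no other gene overlaps. With those bases alone, which assigns the whole value to 226 bases, the Cntf level was 117, the highest of the 9 genes. With the mean of coding transcripts 6 single genes moved by over 1.5 times, Manf to 239, Cntf to 14.97, Nrtn to 4.70, Gdnf to 1.30, Cdnf to 0.679 and Ntf3 to 0.254. Cntf, Nrtn and Gdnf each have 1 annotated transcript, so their length did not change with this definition. Their fall, 1.842-fold for each, reflects only the changed scaling total, as does the fall of the median, which is Nrtn. The median of detected genes was not recomputed with this length. The other 45 checks of counts, medians and positions gave values within 1.5 times the reported ones. Among these, the position of the median level of the 9 genes depended on the minimum for detected genes. It was above 47.6% of detected genes at 10, above 54.9% at 1 and above 32.7% at 100. Leaving out Rn45s changed nothing, because it has no exon length here. The lack of a replicate limits each result to this library. Apart from the minima, lengths and scaling totals themselves, the cause of these shifts was not tested. No paired analysis was possible because there is 1 library.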

Other observations

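Near-identical sequence elsewhere was looked for in the transcripts of all annotated genes. Only the longest alignment with each other gene was kept, so a shorter and more identical stretch beside it was not examined. Among the kept alignments, at 90% identity or more over 100 bases or more, 5 of the 9 genes had no match in another gene. These were Gdnf, Nrtn, Ntf3, Ptn and Mdk. The matches of Cntf, Bdnf and Manf were the overlapping genes named above. Cdnf matched 5 genes at other positions, the longest over 150 bases at 91.3% identity (Gm43702). At 80% identity or more over 100 bases or more, Cdnf matched 1593 other genes, over at most 202 bases. Whether reads of such a stretch were counted for Cdnf was not tested.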
